A study of Mus musculus with 21 samples.

Results

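DNA methylation of exons that lie away from gene starts was examined in intestinal adenomas of the mouse. The regions were the hypermethylated DMRs (differentially methylated regions, stretches whose MeDIP-seq signal was higher in adenoma than in normal intestine) that overlapped an exon by at least 1 base, and that touched neither a promoter nor a CpG island. A promoter was the stretch from 1000 bp upstream to 500 bp downstream of any transcript start. A CpG island was a stretch of at least 500 bp, built by joining touching or overlapping windows of 500 bp. Each window had over 55% G and C and an observed to expected CpG ratio over 0.65. By this rule 722 of 5135 hypermethylated DMRs (14.1%) were selected. Of the 1147 hypermethylated DMRs with an exon, 327 lay in a promoter and a further 98 in a CpG island. The same rule gave 859 of 8845 hypomethylated DMRs (9.71%), which serve below for comparison and are called hypomethylated exon DMRs.

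All samples came from ileum of male C57BL/6J mice aged 15 to 19 weeks. The 3 normal samples B1, B2 and B3 came from B6 mice with intact Apc (Apc+/+). The 3 normal samples N4, N5 and N6 and the 5 adenomas Ad4, Ad4-1, Ad5, Ad6 and Ad7 came from APCMin mice, which carry the Min allele of *Apc* in the germline on the same B6 background. Ad4 and Ad4-1 were separate adenomas of the animal that gave N4, Ad5 was taken from the animal of N5 and Ad6 from that of N6, while Ad7 had no normal sample of its own animal. The wild type controls were littermates, no group was treated, and each adenoma was excised on its own. Input DNA, which was not immunoprecipitated, was sequenced for B3, N4 and Ad7. Each library title carries a code, and its first number is called library series here. The labels do not say what this number stands for. It was 4 for B1, B2, N4, Ad4 and Ad4-1, 9 for N5, N6 and Ad5, 10 for B3 and Ad6, and 2 for Ad7. Cell type markers were not checked, because expression values were not analysed here, and in such tissue samples a change in the share of a cell type and a change of methylation within cells cannot be told apart.

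In mammals most CpG sites outside CpG islands carry methyl groups, and methylated cytosine is prone to mutate to thymine, so that CpG sites have become rare over most of the genome. Exons have kept more of them than introns, and the bodies of transcribed genes are commonly methylated. Methylation in exons is therefore read differently from that in promoters, where it is known to go with silent genes.

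MeDIP-seq enriches methylated DNA with an antibody against methylcytosine. Its signal is given here in rpm (mean coverage by DNA fragments per 1000000 uniquely aligned reads of the library), and rises with both the methylation and the number of CpG sites of a window. The 11 MeDIP libraries held 13878615 to 26297510 uniquely aligned reads and the 3 input libraries 3228908 to 5931425. At 0.5 rpm a window of 500 bp rested on 11.6 to 21.9 MeDIP fragments per sample, which gives a relative SD of 19.1% to 26.3% by counting alone. Because the regions had been listed for higher signal in these 5 adenomas than in these 6 normal samples, differences between adenoma and normal tissue are described below without a test. Coordinates refer to mm9.

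Exonic sequence from a few of these regions shows what the antibody could bind. The first set comes from regions with large differences between adenoma and normal tissue, and the following pair from those with the most CpG sites per base. All are read 5′ to 3′ on the strand of the gene from the reference genome NCBIM37 (the build of mm9), and capitals mark CpG sites.
*Onecut3* exon stretch, chr10:79976660-79976809, plus strand: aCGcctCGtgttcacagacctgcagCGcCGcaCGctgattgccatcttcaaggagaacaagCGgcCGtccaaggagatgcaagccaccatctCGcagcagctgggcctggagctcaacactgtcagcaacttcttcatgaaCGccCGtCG
*Crybb1* exon stretch, chr5:112698337-112698486, plus strand: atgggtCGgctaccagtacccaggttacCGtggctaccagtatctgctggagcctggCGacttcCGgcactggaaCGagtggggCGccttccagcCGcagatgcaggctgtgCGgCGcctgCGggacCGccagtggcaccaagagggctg
*Snx15* exon stretch, chr19:6123830-6123950, minus strand: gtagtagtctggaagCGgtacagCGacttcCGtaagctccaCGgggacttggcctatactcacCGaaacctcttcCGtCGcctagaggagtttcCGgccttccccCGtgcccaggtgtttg
*Mgat1* exon stretch, chr11:49075065-49075214, plus strand: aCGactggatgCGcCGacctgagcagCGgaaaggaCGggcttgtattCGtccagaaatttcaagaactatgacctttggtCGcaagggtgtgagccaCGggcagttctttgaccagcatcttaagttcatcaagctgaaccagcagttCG
*Aldh1b1* exon stretch, chr4:45816429-45816578, plus strand: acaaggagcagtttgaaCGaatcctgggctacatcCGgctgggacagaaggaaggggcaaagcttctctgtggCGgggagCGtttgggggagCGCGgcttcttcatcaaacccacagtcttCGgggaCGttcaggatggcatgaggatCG
*Tnfrsf11a* exon stretch, chr1:107741160-107741309, plus strand: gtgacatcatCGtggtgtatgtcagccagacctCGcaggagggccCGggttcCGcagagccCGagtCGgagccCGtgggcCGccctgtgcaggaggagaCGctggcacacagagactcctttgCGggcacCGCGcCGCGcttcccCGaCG
*Prosapip1* exon stretch, chr2:130460845-130460994, minus strand: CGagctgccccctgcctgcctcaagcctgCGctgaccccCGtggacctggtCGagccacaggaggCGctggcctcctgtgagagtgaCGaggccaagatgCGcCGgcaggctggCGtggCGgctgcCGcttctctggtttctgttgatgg
At the other end of the range were exons with few CpG sites or none, although the regions around them met the same criteria.
*Gfm2* exon stretch, chr13:97933030-97933129, plus strand: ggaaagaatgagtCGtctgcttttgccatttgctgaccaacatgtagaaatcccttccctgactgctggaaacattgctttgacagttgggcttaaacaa
*Rbm20* exon stretch, chr19:53926844-53926889, plus strand: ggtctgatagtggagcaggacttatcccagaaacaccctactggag
*Ddx19b* exon stretch, chr8:113546301-113546354, minus strand: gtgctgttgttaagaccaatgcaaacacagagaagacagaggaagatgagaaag

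The stretch of 150 bases in *Onecut3*, a transcription factor of the CUT and homeodomain class, held 11 CpG sites. In *Tnfrsf11a*, which codes for the receptor RANK of the TNF receptor family, the same length held 16. The exons printed for *Rbm20*, a regulator of splicing, and *Ddx19b*, an RNA helicase of the DEAD box family, held 0. In those regions the few CpG sites, 2 for *Rbm20* and 1 for *Ddx19b*, lay in the flanking sequence.

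The 722 regions fell into 700 genes on 20 chromosomes, and 680 of these genes held 1 region. Protein coding genes held 695 regions, lincRNA genes 13, genes of processed transcripts 10 and pseudogenes 4. Most regions were short, with 605 of 500 bp, 103 of 750 bp and 12 of 1000 bp. The longest, of 1250 and 1500 bp, lay in *Gm16882* and *Aldh1b1*. Internal exons were touched by 488 regions (67.6%) and last exons by 220 (30.5%), while 8 lay in genes with a single exon and 6 in first exons. Among hypomethylated exon DMRs internal exons made up 66.9% and last exons 31.4%. The median region touched exon 7 of a transcript with 13 exons (median over regions of each quantity) and lay 76.2% of the way along its gene, compared with 75% for hypomethylated exon DMRs. Coding sequence was hit by 575 regions (79.6%), 3′ untranslated sequence only by 101 (14%), noncoding transcripts by 42 (5.82%) and 5′ untranslated sequence only by 4.

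Exons filled only part of most regions. The median overlap with exons was 175 bases, 268 regions held at least 250 exon bases and 140 were exonic throughout. An edge between exon and intron lay within 600 regions (83.1%), and 293 (40.6%) held at least 1 exon in full. For hypomethylated exon DMRs these shares were 85.7% and 51.5%. Those were longer, with a mean of 589 bp against 546 bp, and 71.1% of them against 83.8% had 500 bp. The part of length in these shares was not tested. The difference between adenoma and normal tissue was described for each kind of exon, with a median log2 ratio of 0.53 for internal exons (n = 488), 0.50 for last exons (n = 220), 0.53 for coding sequence (n = 575), 0.49 for 3′ untranslated sequence (n = 101) and 0.49 for noncoding transcripts (n = 42). Log2 ratios are of the adenoma mean over the normal mean, each with 0.05 rpm added, whereas fold values below are plain ratios of the 2 means.

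The regions held more CpG sites than exonic sequence at large. At equal length, the 605 regions of 500 bp had a median of 9 CpG sites and 51% G and C, against 5 sites and 44.8% in the 538501 genome windows of 500 bp that overlap exons away from promoters and islands. At least 8 CpG sites were present in 67.6% of these regions and in 32.3% of those windows. The listing had required a mean of 0.25 rpm, and its part in this contrast was not tested. Over all lengths the median was 1.8 CpG sites per 100 bp, the same as in hypomethylated exon DMRs, which were listed under the same floor and had 48.1% G and C. With looser island limits of 300 bp, 50% G and C and a ratio of 0.6, 84 regions (11.6%) touched an island. The paper used these looser limits, on sequence with repeats masked.

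Within the regions, CpG sites were concentrated in the exonic bases. There were 2.5 CpG sites per 100 exon bases and 1.4 per 100 other bases, and in 411 of the 505 regions with at least 50 bases of each kind (81.4%) the exon was the denser. The hypomethylated exon DMRs gave 2.51 and 1.51, and 81%. Of 2998 CpG sites in coding sequence, 37.4% had their cytosine at codon position 1, 23.6% at position 2 and 39% at position 3, with 35.5%, 22.4% and 42.1% for hypomethylated exon DMRs. No test was made of these differences in sequence.

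**Figure D1:**
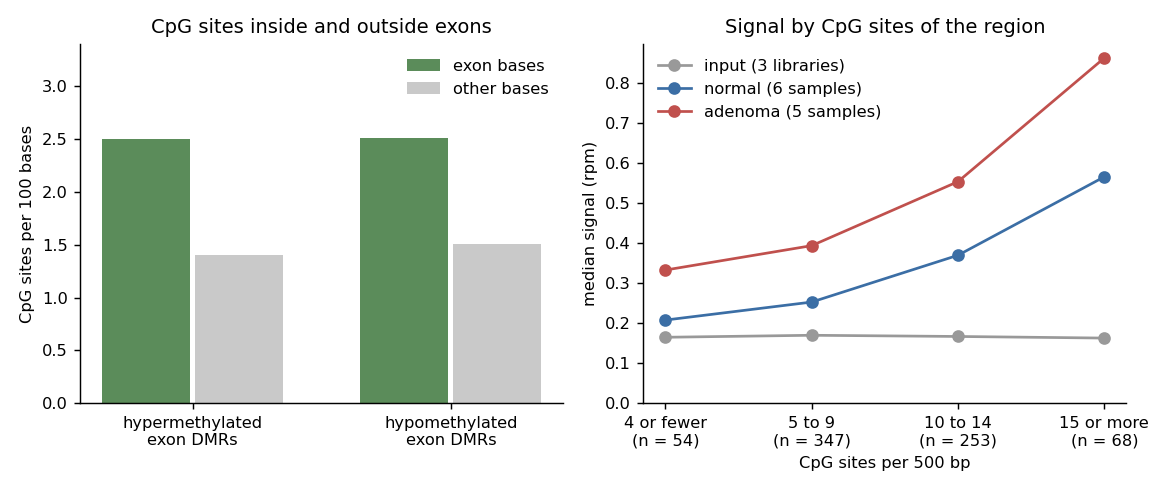
Left, CpG sites per 100 exon bases and per 100 other bases (bars) in the hypermethylated and hypomethylated exon DMRs; right, median signal in rpm of input, normal and adenoma (points joined by lines, medians over regions of the mean of the libraries) by number of CpG sites per 500 bp, with the number of regions under each group. Exon bars reach 2.5 and 2.51 against 1.4 and 1.51 for other bases, and the normal median climbs from 0.208 to 0.566 rpm while input stays between 0.163 and 0.17 rpm.

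Signal followed the number of CpG sites in both tissues. With at most 4 sites per 500 bp (54 regions) the median was 0.208 rpm in normal tissue and 0.333 rpm in adenoma. With 5 to 9 sites (347 regions) these medians were 0.253 and 0.394 rpm, with 10 to 14 sites (253 regions) 0.37 and 0.554 rpm, and with 15 or more (68 regions) 0.566 and 0.863 rpm. The levels thus rose from group to group, whereas the median log2 ratio remained between 0.51 and 0.57. Mean input signal reached the mean normal MeDIP signal in 117 regions and the mean adenoma signal in 16.

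Across all 722 regions, the mean signal was 0.338, 0.375 and 0.374 rpm in B1, B2 and B3, and 0.343, 0.331 and 0.38 rpm in N4, N5 and N6. In Ad4, Ad4-1, Ad5, Ad6 and Ad7 it was 0.52, 0.538, 0.548, 0.54 and 0.558 rpm. Every adenoma mean thus lay above every normal mean, and the 2 normal groups overlapped. Region by region the normal mean had a median of 0.285 rpm (0.0667 to 1.5) and the adenoma mean a median of 0.45 rpm (0.248 to 2.17). The median fold was 1.51, and the median log2 ratio, with 0.05 rpm added to both means, was 0.53 with quartiles of 0.45 and 0.63. Over all 5135 hypermethylated DMRs the median log2 ratio was 0.56. A fold above 2 was reached by 38 regions (5.26%), against 7.89% of all hypermethylated DMRs. The steepest, in *Nfkbia*, which codes for the inhibitor IκBα of NF-κB, rose from a low normal mean of 0.0667 rpm to 0.272 rpm, a fold of 4.08 and a log2 ratio of 1.46 (named after its values were seen).

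**Figure D2:**
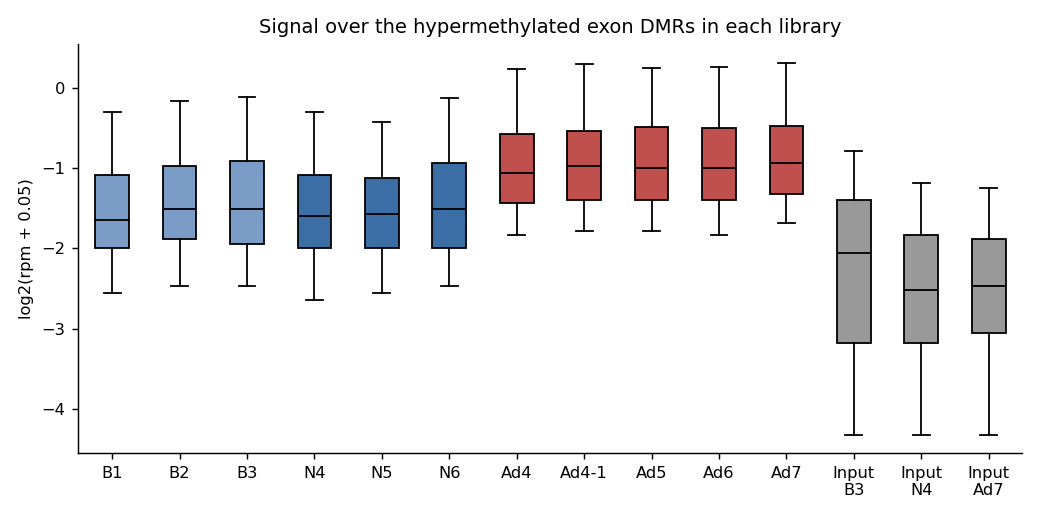
Signal of the 722 regions on the log2(rpm + 0.05) scale in each of the 11 MeDIP libraries and the 3 input libraries (boxes from quartile to quartile with the median as a line, whiskers to the 5th and 95th percentile). The adenoma medians correspond to 0.43 to 0.47 rpm, those of the normal samples to 0.27 to 0.3 rpm and those of input to 0.125 to 0.19 rpm.

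In 337 regions (46.7%) all 5 adenomas lay above all 6 normal samples, and the same was true of 44.5% of all hypermethylated DMRs. An exact rank sum test with the listing limits, applied to the deposited values of the merged regions, was met again by 609 regions (84.3%), against 84.5% of all hypermethylated DMRs. With any 1 sample left out, when only complete separation can reach the p limit, the count was 336 (46.5%, without B1) to 420 (58.2%, without Ad4), against 48.6% and 53.5% of all hypermethylated DMRs. The shares with all 11 samples (46.7% and 84.3%) were near the background, and all of these counts come from the contrast by which the regions were listed. Where groups overlapped (385 regions), the lowest adenoma was Ad4 in 105 cases and Ad7 in 61, and the highest normal sample was N6 in 89 and B1 in 30. The remaining samples fell between these counts. Among adenomas the median coefficient of variation was 15.7% over the 605 regions of 500 bp, below the 24.7% that counting alone would give. It was also below counting in B6 (17.8% against 29.3%) and APCMin normal samples (19.5% against 28.3%), and the listing favours regions with little spread within groups. Summed over regions, the variance was 0.657 times the counting variance in adenomas, 0.724 times in B6 and 1.02 times in APCMin normal samples, so the last group was not below counting by that measure.

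The 12 regions with the largest ratios among those with complete separation and an adenoma mean of at least 0.5 rpm lay in genes of several kinds. *Onecut3* had the largest (chr10:79976501-79977250, coding sequence of exon 2 of 2). Its signal was 0.48, 0.37 and 0.29 rpm in B1 to B3, 0.25, 0.2 and 0.54 rpm in N4 to N6, and 0.9, 1.0, 1.08, 0.8 and 1.11 rpm in the adenomas (in the order Ad4, Ad4-1, Ad5, Ad6, Ad7, which is kept below). The lowest adenoma, Ad6, exceeded the highest normal sample, N6, and the means were 0.355 ± 0.134 rpm (SD, n = 6) and 0.978 ± 0.129 rpm (SD, n = 5), a fold of 2.75 and a log2 ratio of 1.34.

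Further genes of the 12 act on transcription. *Etv3* encodes a repressor of the ETS family (chr3:87331001-87331750, exon 2 of 5). It had 0.25 to 0.44 rpm with a median of 0.26 rpm in normal tissue and 0.56, 0.51, 0.64, 0.84 and 0.64 rpm in adenomas, a log2 ratio of 0.96. *Sap30l*, related to a subunit of the Sin3 histone deacetylase complex (chr11:57623001-57623750, last exon), had 0.14 to 0.41 rpm with a median of 0.38 rpm and 0.45, 0.58, 0.74, 0.67 and 0.77 rpm, a log2 ratio of 0.85. Ad4 came closest to the normal range in *Sap30l*, and Ad4-1 of the same animal did in *Etv3*.

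Genes of membranes, vesicles and signalling formed the next group. *Scarb1* codes for SR-BI, the receptor for high density lipoprotein (chr5:125770001-125770750, exon 8 of 13). Normal samples ranged from 0.12 to 0.32 rpm with a median of 0.25 rpm, and adenomas read 0.51, 0.45, 0.66, 0.58 and 0.35 rpm. Here Ad7 was the adenoma nearest to the normal range, and the log2 ratio was 0.96. *Snx15*, a sorting nexin of endosomes (chr19:6123501-6124500, exon 3 of 8), read 0.75, 0.57 and 0.51 rpm in B6 normal samples, 0.3, 0.46 and 0.6 rpm in APCMin normal samples and 1.19, 1.18, 0.94, 0.9 and 0.95 rpm in adenomas. The log2 ratio was 0.90, and the groups were apart by the interval from 0.75 to 0.9 rpm. *Rps6ka1*, the kinase RSK1 downstream of ERK, was the member of the 12 with its region in 3′ untranslated sequence (chr4:133403001-133403750). It ranged from 0.33 to 0.58 rpm in normal tissue with a median of 0.44 rpm and read 0.6, 0.96, 0.89, 1.12 and 0.88 rpm in adenomas, where Ad4 lay just above the normal range and the log2 ratio was 0.93.

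*Caskin2*, a scaffold protein (chr11:115673001-115673500, exon 2 of 20), had the second largest log2 ratio of the 12, 1.16, with 0.08 to 0.36 rpm in normal tissue (median 0.205 rpm) and 0.5, 0.53, 0.6, 0.42 and 0.57 rpm in adenomas. Input signal was 0.4, 0.23 and 0.29 rpm in B3, N4 and Ad7 there, above the median of the normal MeDIP samples. *Crybb1*, a crystallin of the lens (chr5:112698001-112698500, exon 6 of 7), had 0.15 to 0.33 rpm in normal tissue (median 0.23 rpm) and 0.37, 0.52, 0.55, 0.42 and 0.65 rpm in adenomas, a log2 ratio of 0.95 with input of 0.06 to 0.12 rpm.

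*Mgat1* and *Gfm2* act in glycosylation and translation, and *Syt12* and *Aldh1b1*, which complete the 12, are described further on. *Mgat1*, the transferase that opens the path to complex N-glycans (chr11:49075001-49076000, last exon, exonic throughout), had 0.16 to 0.35 rpm in normal tissue (median 0.27 rpm) and 0.56, 0.49, 0.52, 0.61 and 0.4 rpm in adenomas, a log2 ratio of 0.82. The input of B3 was high in this region at 0.74 rpm, against 0.19 and 0.22 rpm in N4 and Ad7. *Gfm2*, a mitochondrial translation factor (chr13:97933001-97933750, exon 14 of 21), had 0.15 to 0.39 rpm (median 0.305 rpm) and 0.64, 0.49, 0.57, 0.47 and 0.73 rpm, a log2 ratio of 0.83 from 7 CpG sites in 750 bp.

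**Figure D3:**
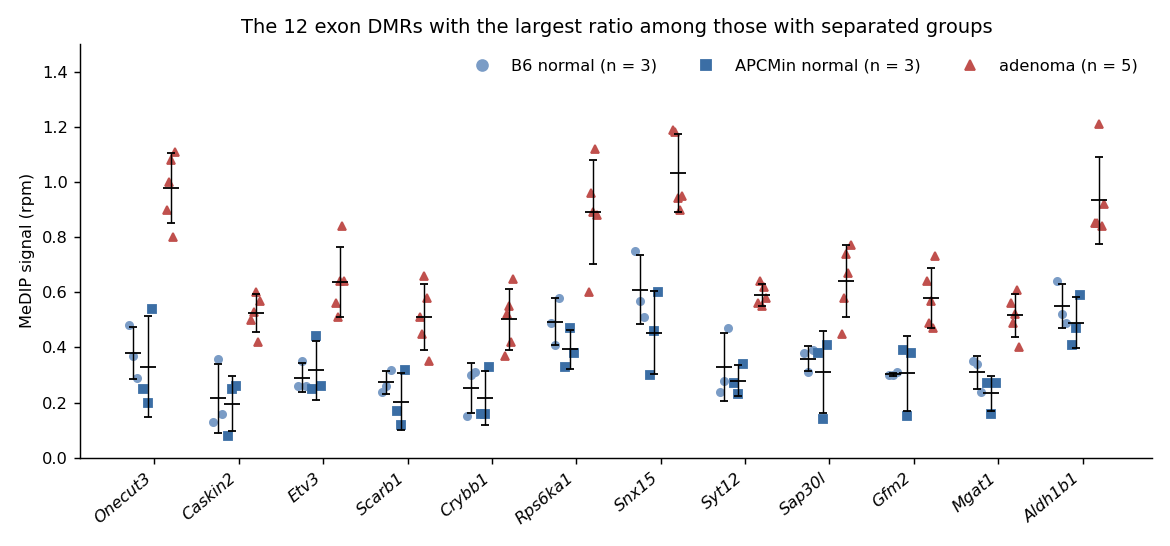
MeDIP signal in rpm of each B6 normal sample (circles), APCMin normal sample (squares) and adenoma (triangles) in the 12 regions with the largest ratios, by gene, with the mean and SD of each group in black. In each of the 12 the lowest adenoma lies above the highest normal sample, and *Onecut3* is the leftmost, with means of 0.355 rpm over all normal samples and 0.978 rpm in adenoma.

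*Aldh1b1*, a mitochondrial aldehyde dehydrogenase, carried the longest region (chr4:45815751-45817250), which lay wholly in its last exon and held 48 CpG sites. Over the whole region B1 to B3 read 0.64, 0.52 and 0.49 rpm, N4 to N6 0.41, 0.47 and 0.59 rpm and the adenomas 0.85, 0.85, 1.21, 0.84 and 0.92 rpm. By these values the groups did not overlap, Ad5 stood above the other adenomas, and the log2 ratio was 0.79. Its 5 deposited windows, which overlap by 250 bp, had normal means of 0.37, 0.578, 0.712, 0.573 and 0.302 rpm from the first to the last and adenoma means of 0.608, 1.11, 1.37, 0.942 and 0.452 rpm. Both curves peaked in the middle window, which also had the most CpG sites, 20. The stretch printed above lies within that window.

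**Figure D4:**
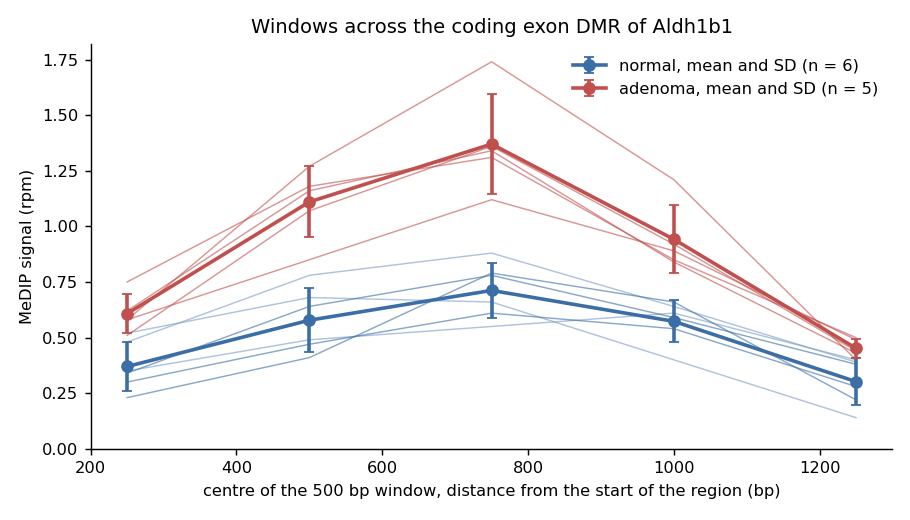
MeDIP signal in rpm over the 5 overlapping windows of the *Aldh1b1* region, by the distance of the window centre from the start of the region in bp (thin lines, single samples; thick lines, group means with SD). Adenoma means run from 0.608 rpm in the first window through 1.37 rpm in the middle to 0.452 rpm in the last, above the normal means of 0.37, 0.712 and 0.302 rpm.

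The second longest region (chr18:37908001-37909250) lay in the last exon of the lincRNA gene *Gm16882*, with 47 CpG sites, and also within *Pcdhgc5* of the gamma protocadherin cluster. Normal samples ranged from 0.54 to 0.84 rpm (median 0.66 rpm), and adenomas lay close together at 0.92, 1.0, 1.0, 0.94 and 0.91 rpm. The log2 ratio was 0.49 with no overlap. *Meis2*, a homeobox gene (chr2:115885751-115886750, exon 4 of 12), had 30 CpG sites but a low normal signal of 0.1, 0.12 and 0.12 rpm in B6 and 0.16, 0.07 and 0.09 rpm in APCMin mice. Adenomas read 0.42, 0.29, 0.26, 0.29 and 0.37 rpm, which gave a log2 ratio of 1.23. Input signal at *Meis2* was 0.19, 0.14 and 0.08 rpm, so that the normal MeDIP samples stood at the level of input and the adenomas above it. Exons made up 51 of its 1000 bases.

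Each region was assigned to 1 gene, protein coding genes first and then by the number of exon bases, and 20 genes then held more than 1. Counting every region within the bounds of a gene, 24 of the 700 genes held more than 1. *Dnahc2*, which encodes a heavy chain of the dynein of cilia, had the most, 4, in exons 21, 45, 52 and 83 of 86. The region at exon 45 (chr11:69272501-69273000) had the highest level, 0.88, 0.8 and 1.05 rpm in B6, 0.59, 0.61 and 0.89 rpm in APCMin normal samples and 1.27, 0.93, 1.17, 1.2 and 1.24 rpm in adenomas. Ad4-1 lay below B3 there, so the groups overlapped, and the log2 ratio was 0.51. Exon 21 (chr11:69305251-69306000) had the largest log2 ratio of the 4, 0.79, from means of 0.147 ± 0.0367 rpm (SD, n = 6) and 0.29 ± 0.0374 rpm (SD, n = 5), without overlap. The log2 ratios at exons 52 and 83 were 0.66 and 0.47.

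*Syt12*, of the synaptotagmin family of vesicle proteins, had neighbouring regions at exons 4 and 3 of 8 with log2 ratios of 0.85 and 0.71, both with complete separation. At exon 4 (chr19:4456751-4457500) normal samples had 0.23 to 0.47 rpm (median 0.275 rpm) and adenomas 0.56, 0.64, 0.55, 0.62 and 0.58 rpm, a narrow range. *Ap3d1*, the delta subunit of the AP-3 coat, had log2 ratios of 0.95 and 0.75 at exons 12 and 17 of 31. *Sympk*, the scaffold symplekin of mRNA 3′ end processing, had 0.91 and 0.56 at exons 8 and 13 of 27. *Plekha6*, with a pleckstrin homology domain, had 0.72 and 0.66 at exons 7 and 24 of 27. In each of these last 3 genes 1 of the 2 regions separated the groups.

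The highest normal levels were found in *Fbl*, *Sema4f* and *Agpat4*, with smaller ratios. *Fbl*, the rRNA methyltransferase fibrillarin (chr7:28959501-28960000, exon 2 of 9), read 1.6, 1.57 and 1.62 rpm in B6, 1.65, 0.84 and 1.71 rpm in APCMin normal samples and 1.75, 1.93, 2.74, 1.93 and 1.83 rpm in adenomas. The normal sample of animal 5 was the lowest of all and its adenoma the highest, and without Ad5 the log2 ratio of 0.43 fell to 0.30. *Sema4f*, a semaphorin (chr6:82863751-82864250, last exon), had 1.11 to 1.85 rpm (median 1.55 rpm) in normal tissue and 1.93, 1.98, 2.4, 2.48 and 2.06 rpm in adenomas, a log2 ratio of 0.52. *Agpat4*, an acyltransferase of phospholipid synthesis (chr17:12412001-12412500, 3′ untranslated), had 1.14 to 1.72 rpm (median 1.39 rpm) and 2.09, 2.03, 1.98, 1.99 and 2.08 rpm, a log2 ratio of 0.48 with adenomas within 0.11 rpm of each other.

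Other regions varied more among adenomas. *Afap1l2*, an adaptor of the actin filament associated family (chr19:56987751-56988250, last exon), had nearly equal normal values, 0.48, 0.47 and 0.45 rpm in B6 and 0.46, 0.47 and 0.46 rpm in APCMin mice. Ad4 and Ad4-1 read 1.08 and 0.91 rpm, whereas Ad5, Ad6 and Ad7 read 0.47, 0.6 and 0.5 rpm, a log2 ratio of 0.57. The difference thus lay mainly in the 2 adenomas of animal 4. *Lrrfip2* (chr9:111063751-111064250, exon 4 of 15) had normal values of 0.14 to 0.29 rpm (median 0.205 rpm) and adenoma values of 0.52, 0.8, 0.26, 0.47 and 0.67 rpm, with Ad5 inside the normal range and a log2 ratio of 1.19. *Pfdn5*, a subunit of the prefoldin chaperone (chr15:102158501-102159000, exon 4 of 6), had 0.33 to 0.46 rpm (median 0.4 rpm) in normal tissue, and Ad5 and Ad7 at 0.84 and 0.87 rpm stood above Ad4, Ad4-1 and Ad6 at 0.54, 0.49 and 0.43 rpm (log2 ratio 0.63).

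The regions with the most CpG sites per base were among those with strong signal. *Prosapip1*, a protein of the postsynaptic density (chr2:130460751-130461250, last exon, 28 sites), read 0.91, 1.54 and 1.16 rpm in B6, 1.24, 0.91 and 1.59 rpm in APCMin normal samples and 2.08, 1.93, 2.62, 1.97 and 1.71 rpm in adenomas, a log2 ratio of 0.73 without overlap. *Tnfrsf11a* (chr1:107741001-107741500, last exon, 27 sites) had 0.55 to 1.04 rpm (median 0.74 rpm) and 1.14, 1.2, 1.34, 1.08 and 1.47 rpm, a log2 ratio of 0.67. *Srcin1*, an inhibitor of Src (chr11:97412751-97413250, exon 2 of 22, 27 sites), had 0.67 to 1.35 rpm (median 0.955 rpm) and 1.94, 1.37, 1.43, 1.29 and 1.46 rpm, where Ad6 fell below B2 and the log2 ratio was 0.58.

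Those with the fewest sites stayed near the listing floor. *Ddx19b* (chr8:113546001-113546500, 1 site) had 0.16 to 0.23 rpm (median 0.18 rpm) in normal tissue and 0.3, 0.24, 0.42, 0.31 and 0.29 rpm in adenomas. *Rbm20* (chr19:53926751-53927250, 2 sites) had 0.17 to 0.3 rpm (median 0.215 rpm) and 0.53, 0.44, 0.33, 0.32 and 0.32 rpm. *Fas*, the death receptor (chr19:34389251-34390000, 3 sites), had 0.05 to 0.26 rpm (median 0.16 rpm) and 0.28, 0.28, 0.42, 0.27 and 0.3 rpm. In none of these 3 did the groups overlap, and at 0.25 rpm counting alone gives a relative SD of 27% to 37.2%, so single values there are weakly determined.

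Gene families were defined by stems of gene symbols and are not complete. They were read against the 3.01% of 22380 protein coding genes (673) that held a region. For hypomethylated exon DMRs the matching share of all protein coding genes was 3.35% (749). Axon guidance genes (semaphorins, plexins, Eph receptors, Robo and Slit) held regions in 11 of 70 genes (15.7%), with log2 ratios from 0.37 to 0.66, and 5 of the 11 regions separated the groups. *Slit1*, a secreted guidance ligand, had the largest of these ratios (chr19:41676001-41676500, exon 36 of 37), with 0.11 to 0.26 rpm in normal tissue and 0.33, 0.35, 0.37, 0.31 and 0.26 rpm in adenomas, where Ad7 equalled B2. Hypomethylated exon DMRs lay in 8 of the same 70 genes (11.4%). Chromatin regulators held regions in 11 of 127 genes (8.66%), against 6 (4.72%) with hypomethylated exon DMRs. *Chd6*, a chromatin remodeller (chr2:160846501-160847000, exon 11 of 37), was the first of these by ratio, with 0.17 to 0.49 rpm (median 0.405 rpm) and 0.85, 0.86, 0.59, 0.51 and 0.63 rpm, a log2 ratio of 0.76 without overlap. *Arid1b*, *Chd7*, *Ezh1*, *Kdm2a*, *Kdm5b*, *Mll2*, *Prdm11* and *Prdm2* were among the others.

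Collagens and other genes of the extracellular matrix held regions in 7 of 67 genes (10.4%; 13.4% for hypomethylated exon DMRs). These were *Col17a1*, *Col25a1*, *Col5a1*, *Col7a1*, *Fbn1*, *Lamb1* and *Tnr*, and *Col25a1* had the largest log2 ratio, 0.76. Motor proteins (myosins, kinesins and dyneins) with ankyrins held 13 regions in 9 of 102 genes (8.82%; 13.7%). The spectrins *Spnb1* and *Spnb4*, whose symbols the list does not cover, held 1 region each. For GTPase regulators it was 9 of 119 (7.56%; 9.24%), led by *Tbc1d13*, a Rab GTPase activating protein, with 0.87. Ion channels had 12 of 189 (6.35%; 5.29%), led by the epithelial calcium channel *Trpv6* with 0.95. Cadherins and protocadherins had 4 of 67 (5.97%; 1.49%), led by *Pcdha11* with 0.68. Long genes offer more exons to a rule of this kind, and gene length was not adjusted for.

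Shares near or below that of all genes were found for the listed zinc finger proteins (14 of 439, 3.19%, led by *Zfp652* with 0.78), developmental transcription factors (4 of 204, 1.96%: *Dlx3*, *Meis2*, *Onecut3* and *Sox13*), neurotransmitter receptors (2 of 107, 1.87%, led by the glutamate receptor subunit *Grin2d* with 0.77) and solute carriers (7 of 370, 1.89%, led by the anion transporter *Slc26a9* with 0.73). Regions were also present in *Dbx1*, *Hhex*, *Ebf3*, *Eya1* and *Trp63*, developmental regulators that the stems do not cover and that were named after the values were seen. Hypomethylated exon DMRs lay in 2.05% of these zinc finger genes, 1.96% of the developmental factors and 2.8% of the neurotransmitter receptors. Among solute carriers they lay in 17 genes (4.59%). Growth factor receptors and MAP kinases held regions in 3 of 78 genes (3.85%; 5.13% for hypomethylated exon DMRs), led by the collagen receptor *Ddr1* with 0.98. Of the Notch, Hedgehog, TGF-β and BMP pathways *Ptch1*, *Smad5* and *Smo* were present (3 of 81, 3.7%; 3.7% for hypomethylated exon DMRs). In *Smad5*, a transducer of BMP signals, the log2 ratio was 0.80.

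The Wnt pathway, which APC restrains, was represented on its list by *Apc*, *Fzd5* and *Tcf7* (3 of 66 genes, 4.55%; 7.58% for hypomethylated exon DMRs). Off the list, *Gsk3b*, the kinase of the APC destruction complex, and *Tnks*, a tankyrase, held 1 region each (log2 ratios 0.54 and 0.86, named after their values were seen). The region in *Apc* itself (chr18:34475751-34476250, named after its values were seen) lay in the coding sequence of the last exon, with 13 CpG sites. It read 0.82, 0.88 and 0.74 rpm in B6, 0.98, 0.84 and 0.83 rpm in APCMin normal samples and 1.32, 1.17, 0.89, 1.21 and 1.15 rpm in adenomas. Ad5 lay below N4, the other adenomas lay above all normal samples, and the log2 ratio was 0.42. Input was 0.19, 0.48 and 0.17 rpm in B3, N4 and Ad7. *Fzd5*, a Wnt receptor (chr1:64777751-64778250, 3′ untranslated), had 0.11 to 0.21 rpm (median 0.14 rpm) in normal tissue and 0.22, 0.18, 0.34, 0.49 and 0.23 rpm in adenomas, with Ad4-1 inside the normal range and a log2 ratio of 0.80. *Tcf7*, a transcription factor of the pathway (chr11:52069751-52070250, exon 10 of 11), had 0.13 to 0.26 rpm (median 0.175 rpm) and 0.28, 0.3, 0.22, 0.28 and 0.38 rpm, with Ad5 inside that range. Its input, 0.34, 0.37 and 0.2 rpm, was at the level of the MeDIP samples.

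Among genes listed by the study as Wnt targets in colon cancer, 3 of 28 (10.7%) held a region. These were *Tcf7*, *Plaur*, the urokinase receptor, and *Fn1*, fibronectin, and 1 gene of the 28 held a hypomethylated exon DMR. *Plaur* (chr7:25260001-25260750, last exon) had 0.28 to 0.61 rpm (median 0.375 rpm) in normal tissue and 0.62, 0.68, 0.64, 1.0 and 0.58 rpm in adenomas, a log2 ratio of 0.69 with Ad7 below N6. *Fn1* (chr1:71644251-71644750, exon 40 of 46) had 0.14 to 0.22 rpm (median 0.18 rpm) and 0.23, 0.34, 0.29, 0.23 and 0.4 rpm, a log2 ratio of 0.61 without overlap. Intestinal stem cell markers gave 3 of 47 (6.38%; 6.38% for hypomethylated exon DMRs) and early transit amplifying cell markers 12 of 248 (4.84%; 5.65%). For late ones it was 3 of 93 (3.23%; 5.38%) and for Paneth cell markers 2 of 47 (4.26%; 2.13%). Over all protein coding genes the shares were 3.01% and 3.35%.

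Of these cell markers, *Cenpf*, a kinetochore protein of dividing cells, stands in both the stem cell and the early transit amplifying list. It had 0.21 to 0.37 rpm (median 0.315 rpm) in normal tissue and 0.53, 0.5, 0.42, 0.46 and 0.4 rpm in adenomas, a log2 ratio of 0.55 without overlap. The stem cell list also gave *Lfng*, a glycosyltransferase acting on Notch, with 0.58. From the early list, log2 ratios were 1.08 in *Clca4*, of the calcium activated chloride channel regulators, 0.82 in the spindle protein *Tpx2*, 0.64 in *Wwtr1*, the YAP partner TAZ, and 0.59 in *Pck2*, the mitochondrial phosphoenolpyruvate carboxykinase. In *Mep1b*, the brush border protease meprin beta on the late list, it was 0.58. Targets of Polycomb complexes in embryonic stem cells held regions in 4.18% to 4.59% of their genes over 4 lists (4.01% to 5.47% for hypomethylated exon DMRs), TET1 targets in 4.9% (5.37%) and MLL targets in 3.54% (4.07%). These shares lay close to one another in both directions of change. All of them were above the shares of all protein coding genes, 3.01% and 3.35%, without adjustment for gene length.

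Hyper- and hypomethylation also met in the same gene. Of the 700 genes, 197 (28.1%) also held a hypomethylated DMR, 146 another hypermethylated DMR and 39 a hypermethylated DMR in a promoter or CpG island. A hypomethylated exon DMR was present in 66 of the 700, whereas 749 of 22380 protein coding genes (3.35%) were assigned one. For the 146 and the 39 no matching share was taken over all genes. Conversely, 176 of the 807 genes with hypomethylated exon DMRs (21.8%) held a hypermethylated DMR. Of all 22380 protein coding genes, 13.9% held a hypomethylated and 10.8% a hypermethylated DMR. The median length was 15420.5 bp for those, 36215.5 bp for the 700 genes and 45105 bp for the 807, and the part of gene length in these shares was not tested.

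Adenomas were next set against the normal sample of the same animal. Ad4 exceeded N4 in 701 regions (97.1%), Ad4-1 exceeded N4 in 708 (98.1%), Ad5 exceeded N5 in 707 (97.9%) and Ad6 exceeded N6 in 693 (96%). The median log2 differences were 0.52, 0.57, 0.58 and 0.47, in that order. In 645 regions (89.3%) all 4 pairs had the adenoma higher, against 90.0% of all hypermethylated DMRs, and the pairs use samples by which the regions were listed. The 2 adenomas of animal 4 differed little, with a median log2 difference of 0.04 (quartiles -0.14 and 0.23), Ad4-1 being higher in 383 regions and lower in 304. The SD of their log2 difference over the regions was 0.28, and for the 9 pairs of adenomas from different animals it was 0.29 to 0.34. Ad4 and Ad4-1 also shared library series 4, whereas every pair from different animals differed in series. Animal and series therefore cannot be told apart in this comparison. Of the adenomas set against their own normal sample, Ad6 (series 10) and N6 (series 9) differed in series, and the part of series was not tested.

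**Figure D5:**
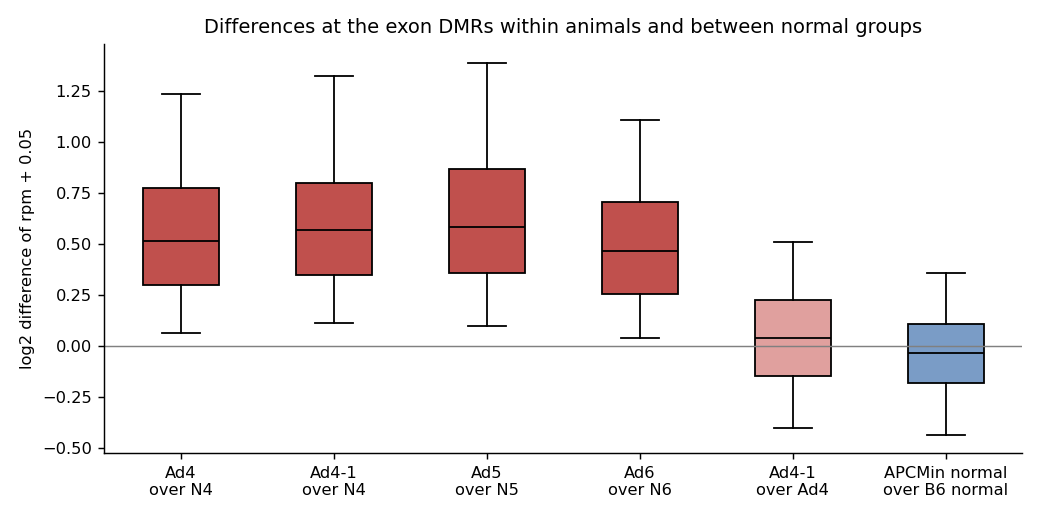
Distribution over the 722 regions of the log2 difference (0.05 rpm added to each value) between each adenoma and the normal sample of its animal, between the 2 adenomas of animal 4, and between APCMin and B6 normal samples from limma (boxes from quartile to quartile with the median, whiskers to the 5th and 95th percentile). The 4 medians within animals lie between 0.466 and 0.585, and the last 2 boxes are centred near 0, at 0.04 and -0.03.

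Whether these exons already differed in the normal intestine of APCMin mice was tested by splitting the 6 normal samples by genotype, in a fit of all 11 samples that shares the spread of the adenomas. The listing did not use this split, but it ranked the 6 normal samples as 1 group and so favours regions where they agree, and the counts hold for listed regions only. By limma with Benjamini-Hochberg adjustment, 0 of the 722 regions and 0 of the 13980 DMRs (0.00%) had an adjusted p under 0.05, and the lowest adjusted p among the regions was 0.88. At an unadjusted p under 0.05, 48 regions (6.65%) were found, 15 higher (2.08%) and 33 lower (4.57%) in APCMin mice, while over all DMRs the shares were 4.32%, 1.39% and 2.93%. The 3 APCMin values lay above all 3 B6 values in 21 regions (2.91%) and below them in 36 (4.99%), against 3.24% and 4.82% of all DMRs. The median difference (APCMin minus B6, log2) was -0.03, and -0.02 over all DMRs. The median SE of this difference was 0.21, beside a median log2 ratio of 0.53 in adenoma.

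The regions nearest to a call moved in both directions. *Zfp316*, a zinc finger gene, read 0.1, 0.06 and 0.08 rpm in B6, 0.19, 0.19 and 0.23 rpm in APCMin normal samples and 0.25, 0.24, 0.38, 0.25 and 0.2 rpm in adenomas (APCMin minus B6 log2 difference 0.97, SE 0.28, limma adjusted p = 0.88). *Itga9*, an integrin subunit, read 0.25, 0.25 and 0.27 rpm, 0.45, 0.41 and 0.39 rpm and 0.53, 0.44, 0.53, 0.48 and 0.53 rpm (difference 0.60, SE 0.18, limma adjusted p = 0.97). In these genes the APCMin normal samples lay nearer to the adenomas than to B6, without passing the adjusted threshold. The noncoding gene *Gm16912* went the other way, with 0.37, 0.49 and 0.56 rpm in B6 and 0.32, 0.19 and 0.32 rpm in APCMin normal samples (difference -0.69, SE 0.20, limma adjusted p = 0.97).

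Input DNA was used to look at the amount of DNA behind these signals. Over the 722 regions the mean input was 0.216 rpm in B3 and 0.152 rpm in both N4 and Ad7. The ratio of Ad7 to N4 was 0.999, with a 95% counting interval of 0.916 to 1.08, whereas their MeDIP signals stood at a ratio of 1.63. Against B3 both other inputs gave 0.703. Each input is 1 library, and the 3 carry different series numbers in their titles (10 for B3, 4 for N4 and 2 for Ad7). No test was possible, and the interval covers counting error only.

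The limits of the rule were close for a few regions. The member nearest to a promoter was that in *Myh14* (6 bp away, log2 ratio 0.55), followed by *Igf2bp2* (23 bp, 1.37), and the regions left out with the smallest overlap were those in *Pygm* (40 bp, 0.52) and *Abcg5* (41 bp, 0.62) for promoters and in *Cadm4* (20 bp, 0.51) and *Itgb4* (24 bp, 0.89) for islands. *Tmem30a* and *Pigf* entered with 1 exon base each.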

How the data were processed

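MeDIP-seq values of 11 tissue samples and 3 input libraries were analysed, and the 7 RNA samples were not used here. The authors aligned reads to mm9 with Bowtie 0.12.5, retained uniquely placed reads, collapsed duplicates at 1 start position and extended them to 300 nucleotides with MEDIPS. The rpm values were deposited by the authors with 2 decimals as mean coverage of 500 bp windows at steps of 250 bp per 1000000 uniquely aligned reads. They listed windows with a rank sum p under 0.01, a ratio past 1.33 and a group mean that reached 0.25 rpm, and merged overlapping windows. In the longest regions, read by window here, the value of the merged region was the median of its windows. Deposited group means, variances, ratios and p-values hold the authors' own comparison and were not used. The number of sample columns left out was 0. Windows that were not listed were not analysed here.

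Exons and promoters came from gencode vM1, while islands were derived from the NCBIM37 sequence. The joined island stretches were not trimmed until the whole stretch met the limits. Log2 values were taken after adding 0.05 rpm. APCMin and B6 normal samples were compared with limma 3.58.1 (R 4.3.3) over all 13980 merged DMRs, in a fit of all 11 samples with 3 groups and Benjamini-Hochberg adjustment, after a test on simulated data. Labels do not state separate preparations within a group beyond the animals, so p-values measure the spread between these samples. Normal samples and adenomas of animals 4, 5 and 6 are paired by their labels. Pearson's r of their deviations from the group means was -0.093 to 0.055 for the same animal and -0.054 to 0.097 for 11 pairs of different animals. Relative SDs were computed from the study's library totals and cover counting error only.

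The regions and gene lists were chosen with earlier results of these data known. Cell marker, Wnt and chromatin target lists came from the study's supplement, and gene families were sets of symbol stems. Named were the 12 largest log2 ratios with complete separation and an adenoma mean of at least 0.5 rpm, the 5 genes with the most regions, the 3 highest normal means, the 3 most variable among adenomas at that mean, the 3 with the most and the 3 with the fewest CpG sites per base, up to 10 in the cell marker and Wnt target lists, the 3 smallest p for APCMin against B6, the 3 longest and the largest ratio of each family. Genes named outside this rule are marked, or appear as further family members or as neighbours of the rule's limits. Other exon, island, promoter, filter and scaling choices were tried as alternatives.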

Additional observations from a re-analysis of the deposited data

Results flagged for a closer look

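In 7 of the 62 named regions 1 adenoma stood apart from the other 4 by more than Dixon's 95% limit for 5 samples (0.71 of the range). Ad5 was the one in 5 of them, with 1.21 rpm in *Aldh1b1*, 2.74 rpm in *Fbl*, 0.56 rpm in *Dnahc2* at exon 52, 0.42 rpm in *Fas* and 0.38 rpm in *Zfp316*. The value in *Aldh1b1* is a median of windows, and Ad5 was not the highest adenoma in all of them. In *Plaur* it was Ad6 with 1 rpm, and in *Srcin1* Ad4 with 1.94 rpm. Each was the highest of the 5 adenomas. Chance gives about 1 such flag in 20 groups, and over all 722 regions 76 (10.5%) passed the limit. The cause was not tested.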

How the results depend on the processing

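The number of regions was 722, and 268 with at least 250 exon bases required. The 6 other choices of exons, islands and promoters gave 581 to 853. Among them were the looser islands (640) and trimmed islands, chosen after seeing the data (728). The listing criteria were met again by 609 regions, by 337 under complete separation, 34 with a ratio over 2 (4.71%, against 7.36% of all hypermethylated DMRs) and 259 with a mean of at least 0.5 rpm (35.9% against 27.2%). Leaving out 1 sample gave 336 (without B1, 46.5% against 48.6%) to 420 (without Ad4, 58.2% against 53.5%). With 10 samples only complete separation reaches the p limit. With the animal as a replicate block, limma on the 7 paired samples gave 349 (48.3% against 47.2%), and 373 on the same samples without the block (51.7% against 51.5%), whose pairing comes from the labels. Ties resolved towards the listed direction gave 716 (99.2% against 99.6%), limma on 11 samples 666 (92.2% against 90.9%), and the direction and ratio within library series 4 held for 586 (81.2% against 84.3%).

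For APCMin against B6 normal samples the count was 0 regions under every alternative with an adjusted p, including those with 1 sample left out. Over all merged DMRs, the count with a limma adjusted p under 0.05 was 2 with 0.5 rpm added and 6 without N6. It was 0 over all merged DMRs under the other alternatives with an adjusted p. At an unadjusted p under 0.05 the count was 48 regions. The median log2 ratio of 0.526 was 0.263 with 0.5 rpm added, 0.485 for adenoma means of at least 0.5 rpm, and 0.511 to 0.538 when 1 sample was left out. It was 0.711 after scaling each sample to its mean over all DMRs. That mean depends on the listing, because 8845 of the DMRs were listed for lower signal in adenoma. The input ratio of 0.999 was 0.703 for Ad7 against B3 and 0.703 for N4 against B3. Of 806 alternative log2 ratios of named regions none changed sign. By more than the SD among the adenomas of that region on the log2 scale 73 moved, 55 of them with 0.5 rpm added. The spread of the normal samples did not enter this limit. Input depth limits single regions.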
